A study of Mus musculus with 6 samples.

Results

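Glutamate receptors and their auxiliary subunits were examined in embryonic cortical cells of the somatostatin (Sst) lineage that had or had not lost Dnmt1, the maintenance DNA methyltransferase. The members were taken by gene symbol and not by their values. Those reported here are the AMPA subunits Gria1 to Gria4, the kainate subunits Grik1 to Grik5, the delta receptor Grid1, the NMDA subunits Grin1, Grin2a to Grin2d, Grin3a and Grin3b, the metabotropic receptors Grm2 to Grm8, the kainate receptor partners Neto1 and Neto2, and the Cacng2 to Cacng8 genes. The rule took 35 of the 57132 genes listed in the expression table, and 33 of these are reported here. Of the 33, 28 had a mean of at least 10 normalized counts over the 6 libraries and were tested.

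The libraries were made from total RNA of tdTomato-positive cells that FAC-sorting had taken from E14.5 mouse cortex, with 3 libraries per group. Controls carried Sst-Cre and the tdTomato reporter. Dnmt1 KO embryos carried both and, according to the study, floxed Dnmt1 alleles on top. The genotype field reads the same for both groups, so the groups were taken from the sample titles. Cre is driven by the Sst gene and, as the study describes it, acts in postmitotic cells, so each library holds recombined Sst-lineage cells and whatever else the sort gate let through. RNA came from cells pooled over embryos of a genotype, and the libraries of a group may share a pool. The p-values then describe only how these libraries scatter, part of which may be technical.

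AMPA, kainate and NMDA receptors are tetrameric ion channels opened by glutamate. AMPA receptors carry most fast excitation, NMDA receptors admit calcium when the membrane is also depolarized, and kainate receptors modulate release and excitability. Metabotropic receptors act through G proteins, with group I (such as Grm5) coupled to phospholipase C and groups II (Grm2, Grm3) and III (Grm4, Grm6, Grm7, Grm8) lowering cyclic AMP. Transmembrane AMPA receptor regulatory proteins (TARPs), encoded by most of the Cacng2 to Cacng8 genes, carry AMPA receptors to the surface and slow their closing, and Neto proteins do the like for kainate receptors. Migrating interneurons meet glutamate before they form synapses, and their receptors are known to influence how they move.

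Values are given as normalized counts, which are reads per gene divided by a size factor per library. A level compared between genes is given as normalized counts per kb of exon. Changes are differences of Dnmt1 KO minus control on the scale log2(normalized count + 1), tested with limma (two-sided, Benjamini-Hochberg adjusted over all tested genes, called under an adjusted p of 0.05). This scale understates changes of low genes.

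The libraries held between 7154043 and 10089981 reads in genes and detected 21316 to 22792 genes. A count of 0 allows up to 3 reads in a library, which is 2.22 to 3.70 normalized counts for counting error only. Dnmt1 itself was at 2768 ± 244 normalized counts in control and 2303 ± 94.0 in Dnmt1 KO (SD, n = 3 each) and fell, with a log2 change of -0.26 (SE 0.07, adjusted p = 0.0218, limma). Reads from outside the floxed part count toward it, so it does not measure how many cells recombined. Sst was at 2978 ± 112 and 3284 ± 153 normalized counts (adjusted p = 0.134, limma). All 12 markers of interneurons from the medial ganglionic eminence, the labelled lineage, were detected and tested. Of these 10 were higher in Dnmt1 KO, and their sum was 25780 to 28324 normalized counts in control and 32064 to 33172 in Dnmt1 KO. Among markers of other regions and cells, several lists were lower. The sum of 7 thalamus and midbrain genes was 2034 to 2127 in control and 438 to 516 in Dnmt1 KO, that of 9 hypothalamus and preoptic genes 1068 to 1094 and 206 to 259, and that of 9 radial glia genes 8012 to 8638 and 5847 to 5995. Of these lists 6 of 7, 6 of 6 and 5 of 9 tested genes were lower, while Rora of the first list and Sox2 of the third were higher. For comparison with all marker lists, 7.64% of all 14126 tested genes were higher and 11.6% lower. The sum of 6 dividing-cell genes was 1.43 times lower, with 5 of 6 lower, and that of 10 striatal projection neuron genes 1.17 times lower, with 4 of 7 tested genes lower and none higher. The lists are not separate. Foxp2 is in the striatal and the thalamus and midbrain lists. Prox1 is in the thalamus and midbrain list and in that of the caudal ganglionic eminence. Sums of the excitatory cortical and Cajal-Retzius lists were 0.940 and 1.04 times those of control, although single genes moved. Of 9 tested excitatory cortical genes 3 were lower and 1 higher. Of 6 tested Cajal-Retzius genes 2 were lower and 0 higher, with a median log2 change of -0.59. The low sums of the oligodendrocyte precursor and astrocyte lists were 1.91 and 2.55 times lower. Only 1 gene of each was tested, and it was lower. The hypothalamic marker Otp had no read in the Dnmt1 KO libraries. In RNA of a cell population, fewer cells of a type and less RNA per cell cannot be told apart.

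The receptor genes moved in both directions. Of the 28 tested members 9 were higher and 5 lower in Dnmt1 KO, and 14 did not pass. The higher members were Gria1, Gria4, Grik3, Grm5, Neto1, Cacng2, Cacng3, Cacng4 and Cacng7, and the lower members were Grik2, Grik4, Grin3a, Grm7 and Grm8. The background was 7.64% of all 14126 tested genes higher and 11.6% lower. The called members were 14 of 28, where 19.2% of all tested genes were called. The groups did not overlap in 17 of the 28 members (60.7%), against 36.7% of all tested genes. The median change of the tested members was 0.13 on the log2 scale, beside 0.02 over all tested genes. By kind of protein, all 7 tested Neto and Cacng genes lay above 0, and 5 were called higher with none lower. Among 15 tested ionotropic subunits 3 were higher and 3 lower, and among 6 metabotropic receptors 1 was higher and 2 were lower. When libraries were scaled by total reads, which moved the median of all tested genes to 0.28, 16 members were higher and 3 lower. Relative to that median 17 members lay above and 11 below, as in the fit given here.

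**Figure D1:**
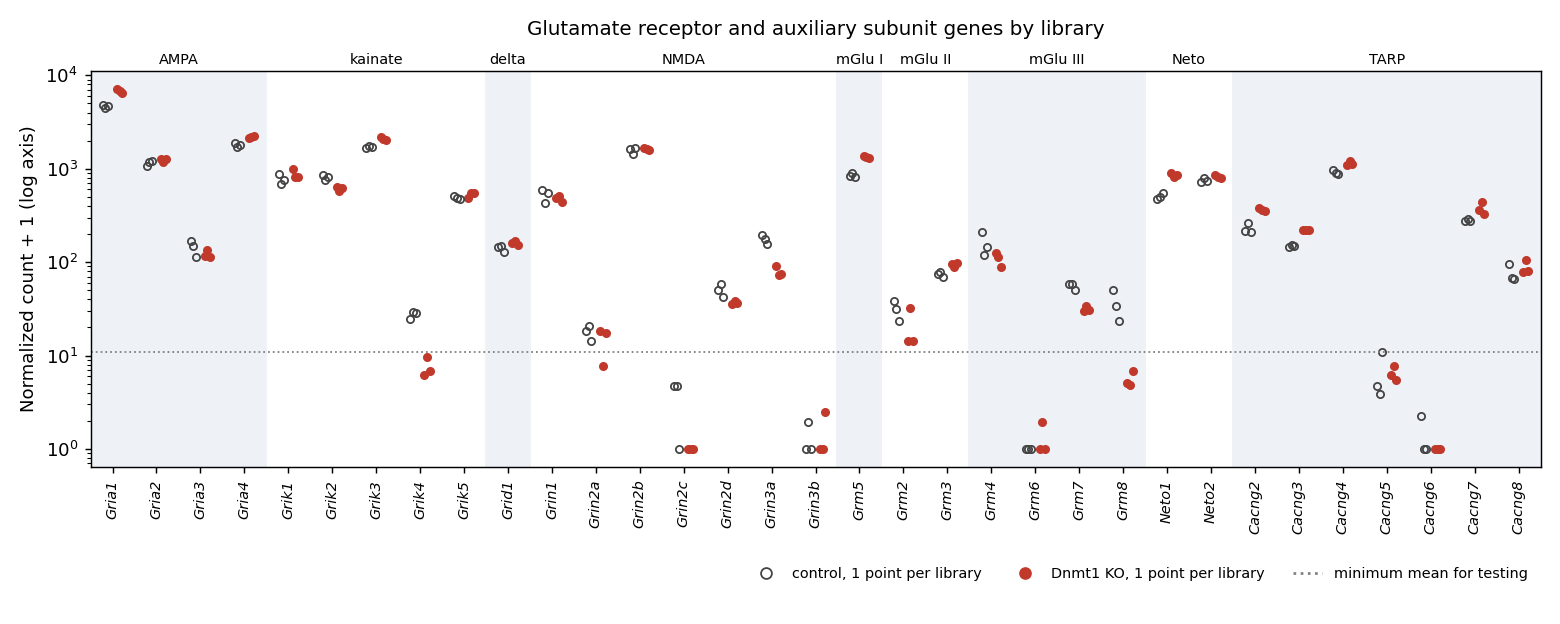
Normalized counts plus 1 (log axis) of the 33 receptor and auxiliary genes in each library, grouped by receptor class, with control libraries as open circles and Dnmt1 KO libraries as filled circles. The 3 Gria1 points of Dnmt1 KO, from 6424 to 7104, lie above the 3 control points, and the Grm8 points of Dnmt1 KO lie below those of control. The dotted line marks the minimum mean for testing.

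Gria1, the subunit GluA1 of calcium-permeable and plasticity-related AMPA receptors, was the most abundant of the reported members. It lies on chromosome 11 at 56902153 to 57221080 on the plus strand (GRCm39). It was at 4798, 4488 and 4753 normalized counts in control replicates 1, 2 and 3 and at 7104, 6842 and 6424 in the Dnmt1 KO replicates. Every Dnmt1 KO library lay above every control library. The mean rose from 4680 ± 168 to 6790 ± 343 (SD, n = 3 each), a log2 change of 0.54 (SE 0.06, adjusted p = 4.8e-05, limma), or 1.45-fold.

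Gria4, the subunit GluA4 that is prominent in interneurons and in early development, rose less. It was at 1901, 1709 and 1796 normalized counts in control and at 2131, 2180 and 2257 in Dnmt1 KO, again without overlap. Its log2 change was 0.28 (SE 0.06, adjusted p = 0.0076, limma), and it missed the threshold only when Dnmt1 KO replicate 3 was left out (adjusted p = 0.0517). Gria2 encodes GluA2, the subunit that makes AMPA receptors impermeable to calcium once its transcript is edited. It was at 1075, 1175 and 1197 in control and 1271, 1187 and 1258 in Dnmt1 KO, groups that overlapped by a small margin, and it did not pass (log2 change 0.11, SE 0.07, adjusted p = 0.301, limma). Gria3 is X-linked. It was at 144 ± 28.8 and 121 ± 10.3 normalized counts (log2 change -0.23, adjusted p = 0.345, limma), and under scaling by total reads its sign turned. Every library held reads of both Xist and the Y-linked Kdm5d, so embryos of both sexes were in the pools. Xist was at 2805 ± 180 normalized counts in control and 1966 ± 10.7 in Dnmt1 KO (adjusted p = 9.9e-05, limma). Kdm5d was at 67.6 ± 12.6 and 183 ± 14.2 (adjusted p = 3.7e-05, limma). Both differed between the groups without overlap. The part of the sex mixture in the values of Gria3 and of the other members was not tested.

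The summed AMPA level was 724 ± 24.2 normalized counts per kb in control and 1004 ± 38.5 in Dnmt1 KO (SD, n = 3 each). All Dnmt1 KO libraries lay above all control libraries, and the exact two-sided permutation test gave p = 0.1, the smallest that 3 against 3 libraries allow (adjusted p = 0.14 over 7 class sums). Within that sum the share of Gria1 was 78.7, 78.6 and 79.2% in control and 83.3, 82.7 and 81.3% in Dnmt1 KO. The share of Gria2 was 5.79 ± 0.46% in control and 4.50 ± 0.24% in Dnmt1 KO, and that of Gria4 13.8 ± 0.34% and 12.1 ± 0.82%. Each of these shares differed without overlap (exact permutation p = 0.1, adjusted p = 0.156 over 14 shares). Their absolute size rests on the gene lengths used. With the longest transcript in place of all exons Gria2 made up 9.15% in control and 7.31% in Dnmt1 KO. Under every length choice Gria1 held the largest share and Gria2 a smaller share in Dnmt1 KO than in control. Shares of one sum depend on each other, so a larger Gria1 share lowers the rest. The smaller shares are no falls in level, as Gria4 rose and Gria2 had a log2 change of 0.11 and was not called.

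The TARP genes stood beside Gria1 in direction. Cacng2 encodes stargazin, the founding TARP, without which cerebellar granule cells of the mouse lack surface AMPA receptors. It was at 215, 264 and 208 normalized counts in control and at 377, 364 and 352 in Dnmt1 KO, without overlap, a log2 change of 0.67 (SE 0.11, adjusted p = 0.000678, limma). Cacng3, its close relative, was at 144, 152 and 149 in control and at 222, 222 and 221 in Dnmt1 KO. The libraries of a group agreed closely, and the log2 change was 0.57 (SE 0.11, adjusted p = 0.0020, limma). Cacng4, a TARP of the developing brain, was the most abundant of the family at 222 normalized counts per kb in control and 276 in Dnmt1 KO. It was at 967, 907 and 878 normalized counts in control and 1098, 1195 and 1127 in Dnmt1 KO, and it rose by 0.31 (SE 0.07, adjusted p = 0.00681, limma).

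Cacng7, a TARP of the second type, was at 278, 291 and 275 normalized counts in control and 359, 441 and 327 in Dnmt1 KO. Replicate 2 of Dnmt1 KO was the highest, and the log2 change of 0.41 (SE 0.11, adjusted p = 0.0221, limma) was no longer called without it (adjusted p = 0.103) or without control replicate 3 (adjusted p = 0.0566). Cacng8, the main TARP of the adult hippocampus, was at 75.2 ± 16.2 and 87.4 ± 15.7 normalized counts and did not pass (log2 change 0.22, SE 0.20, adjusted p = 0.475, limma). Cacng5 had 3 to 9 reads per library and was under the minimum mean. Cacng6, a calcium channel subunit that is not known as a TARP, had 1 read in all. Summed over Cacng2 to Cacng8, the level was 398 ± 15.8 normalized counts per kb in control and 522 ± 31.6 in Dnmt1 KO, without overlap (exact permutation p = 0.1, adjusted p = 0.14). Of the 12 interneuron markers 10 rose too (median log2 change of 0.47 over the 12, beside 0.41 over the 7 tested auxiliary genes), and their part in the rise was not tested.

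Neto1 had the highest log2 change of the reported members. It encodes a membrane protein that slows kainate receptors and also associates with NMDA receptors. It was at 478, 502 and 554 normalized counts in control and 891, 818 and 863 in Dnmt1 KO, far from overlap, and it rose by 0.75 (SE 0.08, adjusted p = 2.5e-05, limma), or 1.68-fold. Neto2, its paralog, was at 753 ± 45.6 and 824 ± 34.3 normalized counts and did not pass (log2 change 0.13, SE 0.07, adjusted p = 0.242, limma). The share of Neto1 in the pair was 34.0, 32.5 and 36.6% in control and 44.4, 43.5 and 45.6% in Dnmt1 KO, groups that did not overlap (exact permutation p = 0.1, adjusted p = 0.156). Neto2 remained the more abundant per kb in both groups.

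Among the kainate subunits themselves the directions differed. Grik3, which encodes the low-affinity subunit GluK3, was at 1687, 1767 and 1697 normalized counts in control and at 2187, 2058 and 2048 in Dnmt1 KO. It rose by 0.29 (SE 0.06, adjusted p = 0.00485, limma). Grik2, which encodes GluK2 and lies on chromosome 10 at 48970929 to 49664880 (GRCm39, minus strand), was at 856, 754 and 823 in control and at 639, 579 and 614 in Dnmt1 KO. It fell, with a log2 change of -0.41 (SE 0.08, adjusted p = 0.00247, limma), without overlap. Scaled by total reads its change was -0.15 and was not called (adjusted p = 0.144). Grik1, which encodes GluK1, was at 887, 683 and 757 in control and 1004, 808 and 813 in Dnmt1 KO, overlapping groups (log2 change 0.17, SE 0.11, adjusted p = 0.284, limma).

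The summed kainate level of Grik1 to Grik5 was 406, 376 and 383 normalized counts per kb in control and 456, 418 and 420 in Dnmt1 KO, without overlap (exact permutation p = 0.1, adjusted p = 0.14). With the longest transcript as length the permutation p was 0.3. The shares of the 3 subunits that can form kainate receptors on their own were compared as well. Grik2 made up 13.95 to 14.85% of the Grik1 to Grik3 level in control and 9.41, 9.60 and 10.1% in Dnmt1 KO (exact permutation p = 0.1, adjusted p = 0.156 over 14 shares). Grik3 was at 51.0 ± 3.35% and 55.6 ± 1.73%, overlapping (exact permutation p = 0.2), and Grik1 at 34.5 ± 3.06% and 34.7 ± 1.98% (exact permutation p = 1.00). Grik3 was ahead of Grik1 per kb of all exons, but behind it when the longest transcript was used (38.7% against 43.5% in control), so the order of these neighbours is not settled by the data. Grik4 and Grik5 encode high-affinity subunits that need a partner from the first group. Grik5 was at 486 ± 19.6 and 529 ± 40.8 normalized counts and did not pass (log2 change 0.12, adjusted p = 0.354, limma). Grik4 was low, at 19, 30 and 25 reads in control and 5, 9 and 8 in Dnmt1 KO, or means of 26.6 and 6.60 normalized counts. It fell, with a log2 change of -1.88 (SE 0.37, adjusted p = 0.0030, limma).

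**Figure D2:**
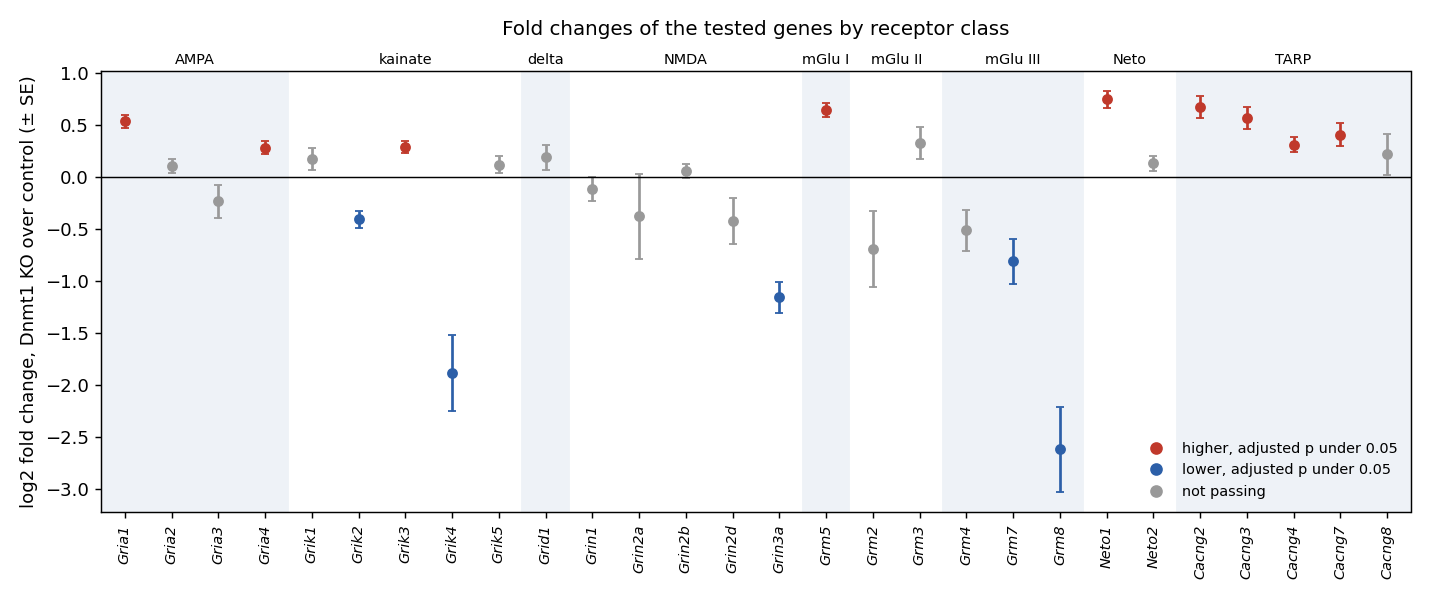
Log2 fold change of Dnmt1 KO over control with its standard error (limma, 3 libraries a group) for the 28 tested genes, ordered by receptor class. The 7 tested Neto and Cacng genes lie above 0, 5 of them called higher, and the called losses reach -2.62 for Grm8.

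Of 5 tested NMDA subunits only Grin3a passed the test. Grin1, the obligatory subunit, was at 526 ± 88.7 and 482 ± 33.8 normalized counts (log2 change -0.11, adjusted p = 0.538, limma), and its sign turned under scaling by total reads. Grin2b, which encodes the main regulatory subunit of the embryonic forebrain, was at 1614, 1447 and 1662 in control and 1674, 1645 and 1593 in Dnmt1 KO. Its log2 change was 0.06 (SE 0.07, adjusted p = 0.598, limma), less than the spread between libraries. Grin2a, the subunit that becomes prominent after birth, was at 16.8 ± 3.27 and 13.5 ± 5.89 (adjusted p = 0.571, limma). Grin2d, which marks interneurons and early stages, was at 49.1 ± 7.78 and 36.1 ± 1.41, without overlap but not called (log2 change -0.42, SE 0.22, adjusted p = 0.207, limma). Grin2c had 3, 4 and 0 reads in control and none in Dnmt1 KO, and Grin3b had 1 and 2 reads per group, too few for a comparison.

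Grin3a encodes GluN3A, a glycine-binding subunit that lowers calcium entry through NMDA receptors and is expressed in young neurons and in somatostatin interneurons. It lies on chromosome 4 at 49661611 to 49845847 on the minus strand (GRCm39). It was at 193, 176 and 157 normalized counts in control and at 89.8, 71.6 and 73.3 in Dnmt1 KO. The lowest control library was well above the highest Dnmt1 KO library, and Grin3a fell, with a log2 change of -1.16 (SE 0.15, adjusted p = 0.000118, limma), to 0.45 times its level. Its share of the summed NMDA level was 10.5, 11.4 and 8.98% in control and 5.59, 4.49 and 4.89% in Dnmt1 KO (exact permutation p = 0.1, adjusted p = 0.156). The NMDA sum was at 130 ± 11.2 and 119 ± 4.44 normalized counts per kb with overlapping groups (exact permutation p = 0.3), and the sign of its difference turned under scaling by total reads (log2 difference 0.14). Grin2b made up 89.2 ± 2.41% and 92.3 ± 0.28% of Grin2a to Grin2d (exact permutation p = 0.1, adjusted p = 0.156).

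Delta receptors bind cerebellins and organize synapses. Grid1, the forebrain member, was at 140 ± 10.8 and 160 ± 8.59 normalized counts, higher in all Dnmt1 KO libraries but not called (log2 change 0.19, SE 0.12, adjusted p = 0.313, limma).

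Among the metabotropic receptors Grm5 rose. It encodes mGlu5, a group I receptor that releases calcium from stores. It was at 835, 902 and 822 normalized counts in control and at 1357, 1349 and 1304 in Dnmt1 KO. The log2 change was 0.65 (SE 0.07, adjusted p = 1.9e-05, limma), or 1.57-fold, with no overlap.

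Of 3 tested group III receptors, which mostly sit on axon terminals, Grm7 and Grm8 fell. Grm8, which encodes mGlu8, had 40, 35 and 20 reads in control and 4, 4 and 8 in Dnmt1 KO, or 34.9 ± 13.7 and 4.64 ± 1.12 normalized counts. It fell, with a log2 change of -2.62 (SE 0.41, adjusted p = 0.000579, limma), the lowest value of the reported members, and the ratio of the means was 7.52-fold. Grm7, which encodes mGlu7, was at 56.8, 56.8 and 49.0 normalized counts in control and 28.9, 32.9 and 29.6 in Dnmt1 KO. It fell by 0.81 (SE 0.21, adjusted p = 0.0190, limma), but its adjusted p was between 0.0502 and 0.0627 when control replicate 1 or 2 or Dnmt1 KO replicate 1 or 3 was left out. Scaling by total reads gave 0.0540 and quantile normalization 0.0506, so that Grm7 was not called in 6 of 17 alternatives. Grm4 was at 210, 118 and 146 in control and 125, 112 and 88.1 in Dnmt1 KO, overlapping groups in which control replicate 1 was the highest (log2 change -0.51, SE 0.20, adjusted p = 0.0923, limma). It passed when control replicate 2 was left out (adjusted p = 0.0242). Grm6, the receptor of retinal bipolar cells, had 1 read in all. The group III sum was at 45.3, 30.3 and 31.9 normalized counts per kb in control and 23.6, 22.6 and 18.5 in Dnmt1 KO (exact permutation p = 0.1, adjusted p = 0.14).

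Group II receptors did not pass. Grm3 was at 73.6 ± 4.29 and 92.8 ± 4.22 normalized counts, with all Dnmt1 KO libraries higher (log2 change 0.33, SE 0.15, adjusted p = 0.157, limma). Grm2 was at 29.9 ± 7.39 and 19.2 ± 10.2 with overlapping groups (log2 change -0.69, SE 0.37, adjusted p = 0.217, limma).

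**Figure D3:**
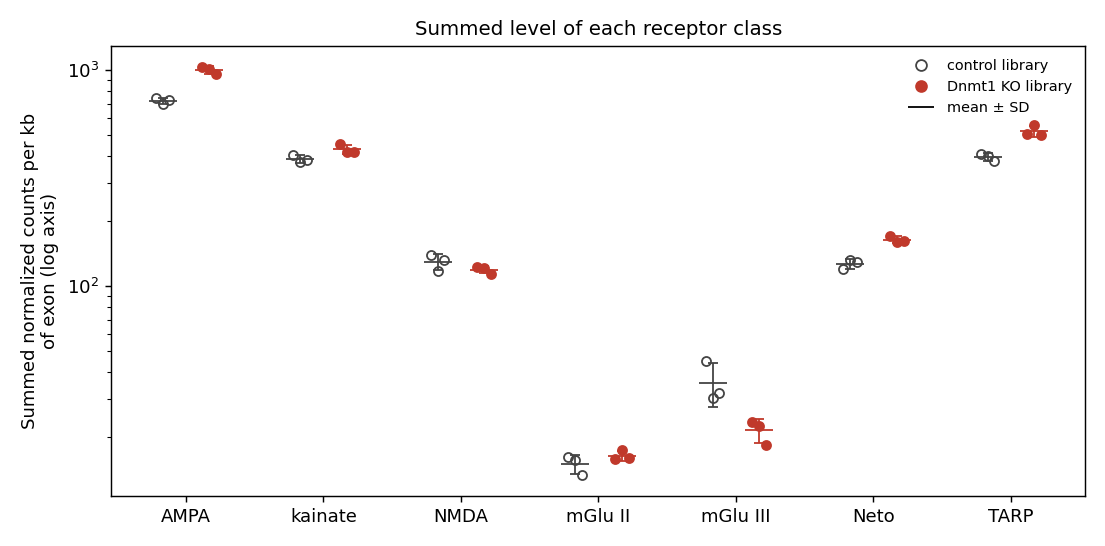
Summed normalized counts per kb of exon (log axis) of 7 receptor classes in the 6 libraries, as points with the mean and SD of 3 libraries per group. AMPA, kainate, Neto and TARP sums of Dnmt1 KO lie above control (AMPA 1004 ± 38.5 against 724 ± 24.2) and the group III sum lies below it (21.6 ± 2.69 against 35.9 ± 8.26).

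The levels of the higher and the lower members overlapped. The higher members had a median of 1029 normalized counts and none was under 185. The lower members had a median of 42.3 and ranged from 16.6 (Grik4) to 711 (Grik2). At a boundary of 100 normalized counts, chosen after the values were seen, 9 of 20 members above it were higher and 2 lower, where 12.2% and 12.4% of all tested genes were. Of 8 tested members below it none was higher and 3 were lower, where 1.85% and 10.5% of all tested genes were. The same libraries held less RNA of thalamic, hypothalamic and radial glial markers, 4.36, 4.65 and 1.40 times lower in sum, and the part of other cells in the loss of low members was not tested.

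**Figure D4:**
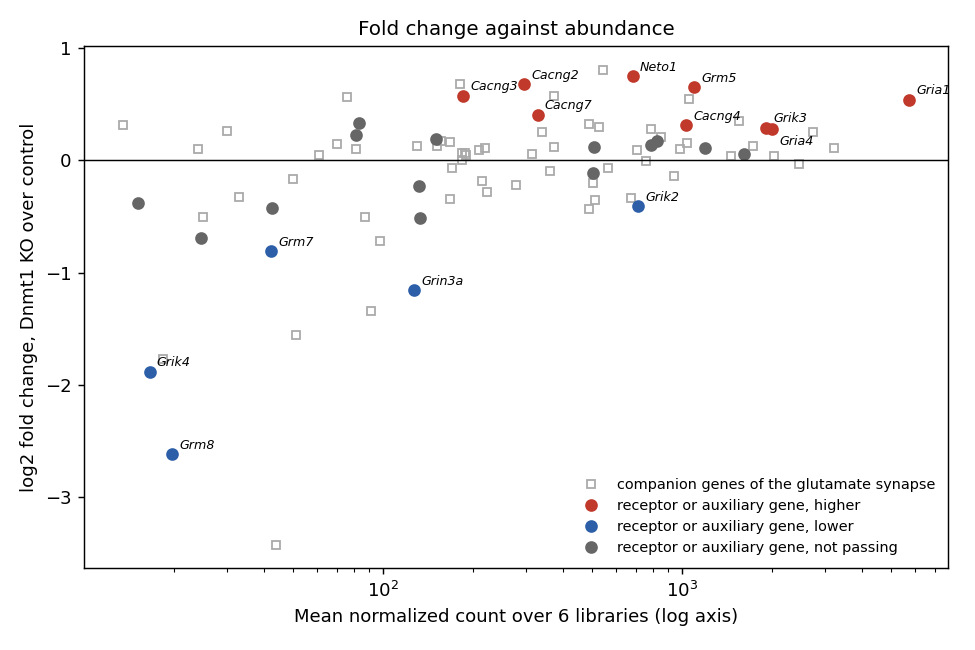
Log2 fold change of Dnmt1 KO over control against the mean normalized count over 6 libraries (log axis) for the 28 tested receptor and auxiliary genes and the 60 tested companion genes of the glutamate synapse. The higher members have means of 185 or more, and 3 of the 5 lower members have means under 100.

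Gene length and promoter letters are features that the choice of members did not use. The members are long genes. Their bodies had a median of 122 kb, against 23.4 kb over all tested genes. The 9 higher members had a median of 128 kb, with 6 over 100 kb. All 5 lower members were over 100 kb, from 184 kb (Grin3a) to 922 kb (Grm7), with a median of 694 kb, and the 14 members that did not pass had a median of 110 kb. Genes over 100 kb were 15.1% of all tested genes. Tested protein-coding genes alone had a median of 28.9 kb, with 17.3% over 100 kb.

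Because DNMT1 copies methylation at CG pairs, the CG content of promoter windows (250 bases before to 50 after the start, RefSeq, build GRCm38.p6) was counted. CG reads the same on both strands, and 94.6% of the 32849 windows used held at least 1. RefSeq windows were used for 20 of the 33 members, 25 windows in all. Members held a median of 15 CG pairs per window, against 7 over all windows. The higher members with a window (3 of 9, Cacng2, Cacng7 and Gria4) had a median of 17 and a range of 15 to 20. The lower (4 genes, 7 windows) had a median of 15 and a range of 2 to 42. Members that did not pass (8 genes, 9 windows) had a median of 12, and those not tested (5 genes, 6 windows) 6.5. Below are 2 windows of genes that fell, with CG in capitals, as examples. A Grm8 window held fewer CG pairs than either, 2, and the windows of Grm7 overlap each other. Grik4 held 42 CG pairs, more than 97.0% of windows (chr9:42944322-42944621, minus strand), and Grm7 held 10 in the first of its windows (chr6:110645262-110645561, plus strand). Methylation was not measured in these libraries.
Grik4: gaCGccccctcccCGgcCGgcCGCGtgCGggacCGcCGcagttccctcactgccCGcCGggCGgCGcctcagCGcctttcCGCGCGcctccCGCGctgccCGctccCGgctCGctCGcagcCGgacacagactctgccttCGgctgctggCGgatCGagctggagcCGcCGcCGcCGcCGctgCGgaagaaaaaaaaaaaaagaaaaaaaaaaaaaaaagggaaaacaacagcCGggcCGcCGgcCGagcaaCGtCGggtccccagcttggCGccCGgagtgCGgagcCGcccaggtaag
Grm7: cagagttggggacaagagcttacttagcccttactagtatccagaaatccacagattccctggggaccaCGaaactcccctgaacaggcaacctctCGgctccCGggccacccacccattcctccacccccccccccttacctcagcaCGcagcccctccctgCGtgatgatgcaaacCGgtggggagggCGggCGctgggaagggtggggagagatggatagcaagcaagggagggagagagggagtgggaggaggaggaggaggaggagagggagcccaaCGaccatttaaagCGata

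Companion genes of the glutamate synapse were followed in the same fit. Of 69 listed genes 60 were tested, 8 were higher, 7 lower and 45 did not pass, with a median log2 change of 0.07. The called share was 25.0%, against 19.2% of all tested genes. The largest part of the rises lay in genes for AMPA receptor assembly and auxiliary function, where 5 of 13 tested genes were higher and 1 lower. Over all tested genes 7.64% were higher and 11.6% lower. The companion list was fixed with earlier results of these data known. Frrs1l, which helps to assemble AMPA receptors in the endoplasmic reticulum, was at 246, 341 and 320 normalized counts in control and 466, 420 and 450 in Dnmt1 KO (log2 change 0.57, SE 0.12, adjusted p = 0.00399, limma). Syndig1, a membrane protein associated with AMPA receptors, rose by 0.68 (SE 0.12, adjusted p = 0.00172, limma), and Olfm1, which binds the receptor complex from outside, by 0.34 (SE 0.07, adjusted p = 0.00328, limma). Cnih2, a cornichon that exports AMPA receptors, rose by 0.32 (adjusted p = 0.0248, limma) and Olfm2 by 0.30 (adjusted p = 0.0299, limma). Shisa9, an auxiliary subunit that speeds desensitization, fell by 1.77 from 28.0 ± 13.8 to 8.77 ± 6.74 normalized counts (adjusted p = 0.0459, limma), a call that edgeR on the recovered reads did not make (adjusted p = 0.0576). Cnih2, Olfm2 and Shisa9 were named after their values were seen, to complete the list.

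Of 8 tested ligands and trans-synaptic partners of the receptors, 1 was higher, 1 lower and 6 did not pass. Their called share was 25.0%, against 19.2% of all tested genes. Of 3 tested genes listed with RNA editing, 1 was lower and 2 did not pass. Elfn1, an adhesion protein of somatostatin-cell inputs that binds mGlu7 across the synapse, was at 406, 401 and 381 normalized counts in control and 646, 700 and 734 in Dnmt1 KO. Elfn1 rose by 0.81 (SE 0.08, adjusted p = 1.4e-05, limma). Grm7 fell in the same libraries, a call lost in 6 of 17 alternatives, and a link between these changes was not tested. Adarb2, a member of the adenosine deaminase family without known editing activity and a marker of interneurons from the caudal ganglionic eminence, was at 81.2 ± 2.52 and 6.77 ± 1.40 and fell, with a log2 change of -3.42 (SE 0.28, adjusted p = 2.4e-06, limma). The other editing genes, Adar and Adarb1, did not pass. Of 5 tested genes of the caudal ganglionic eminence 2 were higher and 2 lower, where 7.64% and 11.6% of all tested genes were. The sum of that list was 752 to 794 normalized counts in control and 692 to 893 in Dnmt1 KO. Cbln2, a cerebellin that links neurexins to delta receptors, was at 43.2, 86.1 and 105 in control and 24.8, 24.2 and 23.7 in Dnmt1 KO and fell by 1.56 (SE 0.30, adjusted p = 0.0025, limma).

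Scaffolds were mostly not called, with 1 of 18 higher and 1 lower, a called share of 11.1% beside 19.2% of all tested genes. Dlgap2, a linker of the postsynaptic density, was at 858 ± 11.6 and 1252 ± 92.5 normalized counts and rose by 0.54 (SE 0.07, adjusted p = 0.000151, limma), and Dlg1, which encodes SAP97, fell by 0.44 from 561 ± 49.8 to 413 ± 31.5 (adjusted p = 0.00492, limma). Of 5 tested glutamate transport genes 2 were lower, where 11.6% of all tested genes were. The vesicular transporter Slc17a6 fell by 0.72 from 122 ± 11.1 to 73.5 ± 6.88 (adjusted p = 0.0049, limma). It marks glutamatergic neurons, also those of the thalamus and midbrain, and is in the excitatory cortical list used here. Slc1a2, a glutamate uptake carrier, fell by 0.34 (adjusted p = 0.0239, limma). Slc1a2 lost the call in 4 of 18 alternatives, where its change went down to -0.083 and its adjusted p up to 0.528. Dlg1 lost it in 1 of 18, with a change of -0.18 under scaling by total reads (adjusted p = 0.134). Among 11 kinases, G proteins and effectors below the receptors, 1 was higher, 1 lower and 9 did not pass. The called share was 18.2%, near the 19.2% of all tested genes. Plcb1, a phospholipase C below group I receptors, rose by 0.28 (adjusted p = 0.0210, limma). It lost the call in 3 of 18 alternatives (adjusted p up to 0.0805). Plcb4 of the same list did not pass (log2 change 0.06, adjusted p = 0.693, limma). Camk2a, the kinase activated by NMDA receptor calcium, fell by 1.34 (adjusted p = 0.0137, limma), from 152, 73.8 and 168 normalized counts in control to 57.8, 28.1 and 68.1 in Dnmt1 KO, and lost the call without Dnmt1 KO replicate 2 (change of -0.97) and with robust variance moderation (adjusted p = 0.0731). The 2 tested genes of D-serine supply did not pass.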

How the data were processed

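Total RNA libraries were made with a stranded low-input kit after sorting, and ribosomal RNA was depleted. Per the submitters' notes, reads were processed with STAR 2.7.11b, Trim Galore 0.6.10 and Salmon 1.10.3 on GRCm39, and values with DESeq2 1.42.1 in R 4.3.3. The study's methods give other tool versions. The signal used was deposited by the authors as normalized counts, that is counts divided by 1 size factor per library. The deposited tables of differential expression statistics and of term enrichment were not used. All values were whole multiples of a step per library (100% within a tolerance of 0.001), which gave back the reads, 7154043 to 10089981 per library. PCR duplicates make counting error a lower limit. Replicate numbers did not pair the libraries (correlation of same-numbered deviations -0.018, 0.064 and -0.031), and no libraries of a group were duplicates (chi-square per gene of 3.45 or more).

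Genes with a mean of at least 10 normalized counts (14126) were fitted as log2(normalized count + 1) with limma 3.58.1 (eBayes with trend) with no term other than group. edgeR 4.0.16, DESeq2 1.42.0 and limma-voom on the recovered reads, other scalings, pseudocounts, filters, leaving out each library and a replicate block were alternatives. Class sums and shares were tested over all 20 assignments of the libraries (exact permutation, two-sided). Positions and exon lengths were read from GENCODE M39 (GRCm39), which lacks 0.879% of the genes. Promoter windows came from RefSeq (GRCm38.p6). Those of Gria1, Gria3, Grik1, Grik3, Grid1, Grin2a, Grin2b, Grin3a, Grm4, Grm5, Neto1, Cacng3 and Cacng4 were not used here. Of the genes taken by the rule, 2 are not reported here, nor are sums and shares that need them. All reported members are accounted for, and the rule named the 12 called companion genes with the smallest p. The members, lists and tests were chosen with earlier results of these data known. The limma fit was tested on simulated data.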

Additional observations from a re-analysis of the deposited data

How the results depend on the processing

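Over 18 alternatives the 14 called members gave 249 values, of which 239 kept direction and call, 10 lost the call and 0 reversed, and 10 members never lost it: Gria1, Grik3, Grik4, Grin3a, Grm5, Grm8, Neto1, Cacng2, Cacng3 and Cacng4. edgeR, DESeq2 and limma-voom on the recovered reads each called 9 members higher and 5 lower. With scaling by total reads the median of all tested genes was 0.28, and this called 16 members higher and 3 lower, 28 companion genes higher, and 5051 genes higher and 1051 lower, against 1079 and 1638. It also turned the signs of the changes of Gria3 (0.024) and Grin1 (0.14) and of the NMDA sum (0.14), none of which was called. The losses numbered 4 after quantile normalization and 2 with a minimum mean of 50, under which Grik4, Grm7 and Grm8 are not tested. Otherwise the cause was not tested.

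Leaving out a library in turn, 8 to 9 members were higher and 4 to 5 lower, 6 to 10 companion genes higher and 4 to 8 lower, and 531 to 977 of all genes higher and 1235 to 1527 lower, with fewer samples by construction. The lowest counts of all genes higher came without Dnmt1 KO replicate 3 (531) and replicate 2 (569). The change of Grin2a ranged from -0.61 to 0.023 (without Dnmt1 KO replicate 2) and that of Grin2b from -0.00046 (without control replicate 2) to 0.099. The share difference of Grik1 ranged from -1.25 to 1.8 percentage points and that of Grm7 from -4.72 to 0.562. Replicate numbers only name the libraries; with a replicate block 9 members were higher and 5 lower, 9 and 7 companion genes, and 945 and 1583 of all genes. Called members with 40 reads or fewer in every library (Grik4, Grm8) are limited by depth.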
